A study of Mus musculus with 60 samples.

Results

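The 5 replicates of P19CL6, a substrain of the mouse embryonal carcinoma line P19, were compared with replicates 1, 2 and 3 of P19 itself. Each replicate had been hybridised to 2 Affymetrix array types, MOE430A and MOE430B, so the comparison used 16 of the 60 arrays of the series (26.7%), 8 of each type. The 3 P19 replicates were picked from the profiles of these same arrays: P19 replicates 4 and 5 lay with P19CL6, and their values are given beside the comparison rather than inside it. Because the choice rests on the values themselves, differences between P19CL6 and P19 replicates 1 to 3 are a description and carry no p-value.

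All cells were cultured undifferentiated in alpha-minimum essential medium with serum, and the labels give the same origin for every sample: strain C3H, male, embryo. No treatment, transgene or deletion is named for any group. P19 is the parental line, P19CL6 is its substrain, and CL6G26, CL6G36, CL6G45 and CL6G52 are 4 sublines of P19CL6. Every strain has 5 replicates labelled as biological, but the labels do not say whether they were separate cultures, so the spread between them may be partly technical. Among the sublines, replicate 1 of CL6G52 stood apart from its group in several genes below.

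Embryonal carcinoma cells are the stem cells of teratocarcinomas. They keep the transcription factor network of the early embryo, with Pou5f1, Sox2 and Nanog at its centre, and can be driven into derivatives of several germ layers. P19 cells form neurons after aggregation in retinoic acid, and P19CL6 was derived as a substrain that turns readily into beating cardiac muscle in dimethyl sulfoxide. None of these inductions was applied here, so the arrays describe the stem cell state of both lines.

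Signals are given as log2 values after quantile normalization within an array type, so a difference of 1 is a 2-fold difference. A floor was set on each array at the 40th percentile of all probe sets on MOE430A and the 60th on MOE430B, at most 4.62 and 4.15. A gene was read from its brightest probe set. It was counted as higher or lower where the 5 P19CL6 arrays and the 3 P19 arrays did not overlap and their means, raised to the floor, differed at least 2-fold. Where every array of the dimmer group lay under the floor, the fold is a lower bound and is written as "at least". Where only some of its arrays did, those were raised to the floor, and the fold printed is limited by it. A level of one gene cannot be set against that of another, because each probe set binds with its own strength.

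Both lines expressed markers of the cell type their labels name. All 7 embryonal carcinoma markers examined (Pou5f1, Nanog, Sox2, Sall4, Utf1, Tdgf1 and Lin28a) were above the floor in both groups, with array values from 8.25 to 11.53. Other genes of pluripotent cells were seldom measured: Klf4 and Zfp42 were above the floor on 0 of 30 arrays, Dppa2 on at most 4 and Dppa3 on at most 14. The octamer factor Pou5f1 read 11.22, 11.22 and 11.24 on P19 replicates 1 to 3 and 11.41, 11.39, 11.53, 11.39 and 11.44 on P19CL6, a difference of 0.20 ± 0.06 (SE). Nanog differed by 0.12 ± 0.13 and Sox2 by -0.51 ± 0.13. Of the markers of other cell types, the best probe set of Afp was above the floor on 1 of 30 arrays, that of Ttr on 0, of Col1a1 on 1, of Postn on 0 and of Krt7 on 0. Others were measured widely. The neural progenitor gene Nes was above the floor on 30 of 30 arrays and the muscle filament gene Des on 28. The MOE430B probe set of the cardiac troponin gene Tnnt2 was above it on 19 arrays, but its MOE430A probe sets on 0.

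Of 13181 genes tested, 274 were counted as different (2.08%). P19CL6 was higher in 160 (1.21% of the genes tested) and lower in 114 (0.865%). The difference was at least 4-fold in 37 of them, 25 higher and 12 lower. For 22 of the higher and 10 of the lower genes the fold is a bound, and 179 of the 274 were above the floor on all 8 arrays. Arrays that did not overlap were far more frequent than 2-fold differences: 11.7% of the genes tested lay wholly higher in P19CL6 and 12.6% wholly lower. On the authors' own scaling, which shifts the median of all genes by 0.13 towards P19CL6, the split was 246 higher and 67 lower, 78.6% higher against 58.4% here.

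**Figure D1:**
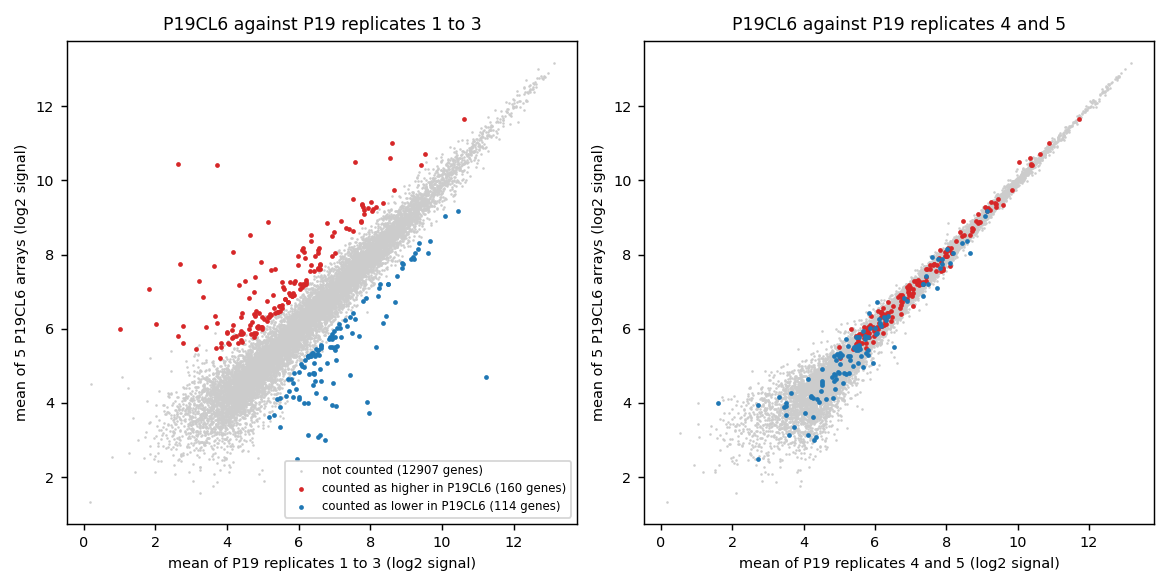
Mean log2 signal of each gene on the 5 P19CL6 arrays (vertical axes) against P19 replicates 1 to 3 (left) and P19 replicates 4 and 5 (right). Red points are the 160 genes counted as higher and blue points the 114 counted as lower in the left comparison; in the right panel the same genes lie along the diagonal with the rest.

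P19 replicates 4 and 5 were left out of the comparison because their profiles lay with P19CL6. Their place in the 274 genes therefore restates that choice gene by gene and is no separate check. In 260 of the 274 genes both arrays lay nearer the P19CL6 mean than the mean of P19 replicates 1 to 3, and in the other 14 one of them did. Both lay inside the range of the 5 P19CL6 arrays in 148 genes. Either lay inside the range of P19 replicates 1 to 3 in 7. Placed on a scale where 0 is the mean of P19 replicates 1 to 3 and 1 the mean of P19CL6, their median over the 274 genes was 0.98 and single genes ranged from 0.29 to 1.55. Under the same rule of overlap and fold but with all 5 P19 replicates kept, 2 genes were counted as higher and 4 as lower.

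The profiles from which the P19 replicates were picked can be described by the distances between whole arrays, which restate that choice. The mean absolute log2 difference between 2 MOE430A arrays was 0.18 to 0.20 among P19 replicates 1 to 3, 0.16 to 0.24 among P19CL6, and 0.18 to 0.22 between P19 replicates 4 and 5 and P19CL6. Between P19 replicates 1 to 3 and P19 replicates 4 and 5 it was 0.30 to 0.33, and between P19 replicates 1 to 3 and P19CL6 it was 0.31 to 0.35. On MOE430B, whose signals are dimmer, the last 2 ranges were 0.33 to 0.36 and 0.33 to 0.37. The ratio of the 3' to the 5' Gapdh probe set, a sign of RNA integrity, was 0.908 to 0.937 on the MOE430A arrays of P19 replicates 1 to 3, 0.924 to 0.954 on those of replicates 4 and 5, and 0.835 to 0.887 on those of P19CL6. On MOE430B the 3 ranges overlapped (0.815 to 0.917, 0.841 to 0.882 and 0.829 to 0.878). The part of this ratio in the differences was not tested.

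Cited1 lay under the floor in P19 replicates 1 to 3 and was bright in P19CL6. It encodes a coactivator that carries no DNA-binding domain and works through CBP and p300. Its signal was 2.07, 4.18 and 1.66 on P19 replicates 1, 2 and 3, under the floor on each, and 10.45, 10.44, 10.44, 10.47 and 10.40 on the P19CL6 arrays. P19CL6 was at least 56.8-fold higher, and P19 replicates 4 and 5 read 10.31 and 10.44, in or next to the P19CL6 range. The 20 subline arrays read 10.27 to 11.19 with a median of 10.79. One transcript with a clone name, AW551984, is named here after its values were seen. It read 4.22, 2.23 and 4.69 on P19 replicates 1 to 3 and 10.65, 10.65, 10.19, 10.36 and 10.24 on P19CL6, 67.1-fold higher with P19 replicate 2 raised to the floor. With both genes limited by the floor, no order between them can be given.

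Tspoap1, which encodes a binding partner of presynaptic active-zone proteins, read 4.63, 4.84 and 4.48 on P19 replicates 1 to 3 and 8.66, 8.56, 8.44, 8.49 and 8.52 on P19CL6, 14.7-fold higher. Pcbd1, which encodes an enzyme of tetrahydrobiopterin recycling that is also the dimerization cofactor of HNF1, read 5.03, 4.68 and 5.77 against 9.03, 8.68, 8.75, 9.0 and 8.98, 13.2-fold higher. In both genes the 2 groups were far apart. The coronin gene Coro2a was at least 10.9-fold higher and the zinc finger gene Zfp934 at least 12.1-fold higher, both under the floor on the 3 P19 arrays. P19 replicates 4 and 5 lay between 7.63 and 8.67 in Tspoap1, Coro2a and Zfp934, and at 8.96 and 8.88 in Pcbd1.

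Lgals3 encodes galectin-3, a lectin that binds beta-galactosides. It read 4.38, 2.68 and 3.88 on P19 replicates 1 to 3 and 7.03, 6.97, 8.11, 8.12 and 8.25 on P19CL6, at least 8.47-fold higher. The first 2 P19CL6 replicates were the lower ones, and P19 replicates 4 and 5 read 8.15 and 8.03, with the other 3. It was the one gene of the 274 in which none of the 20 subline arrays lay nearer P19CL6: they read 0.94 to 5.58, with a median of 3.22. H2-Oa, which encodes the alpha chain of the class II molecule DO that modulates peptide loading, was 7.11-fold higher, at 4.96, 5.36 and 4.5 against 7.88, 7.91, 7.72, 7.67 and 7.86. Phyhip, named for its interaction with phytanoyl-CoA hydroxylase, was at least 6.51-fold higher. Cacna1g, the pore subunit of a T-type calcium channel, was at least 6.35-fold higher, and the dicarbonyl reductase gene Dcxr was 5.74-fold higher.

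**Figure D2:**
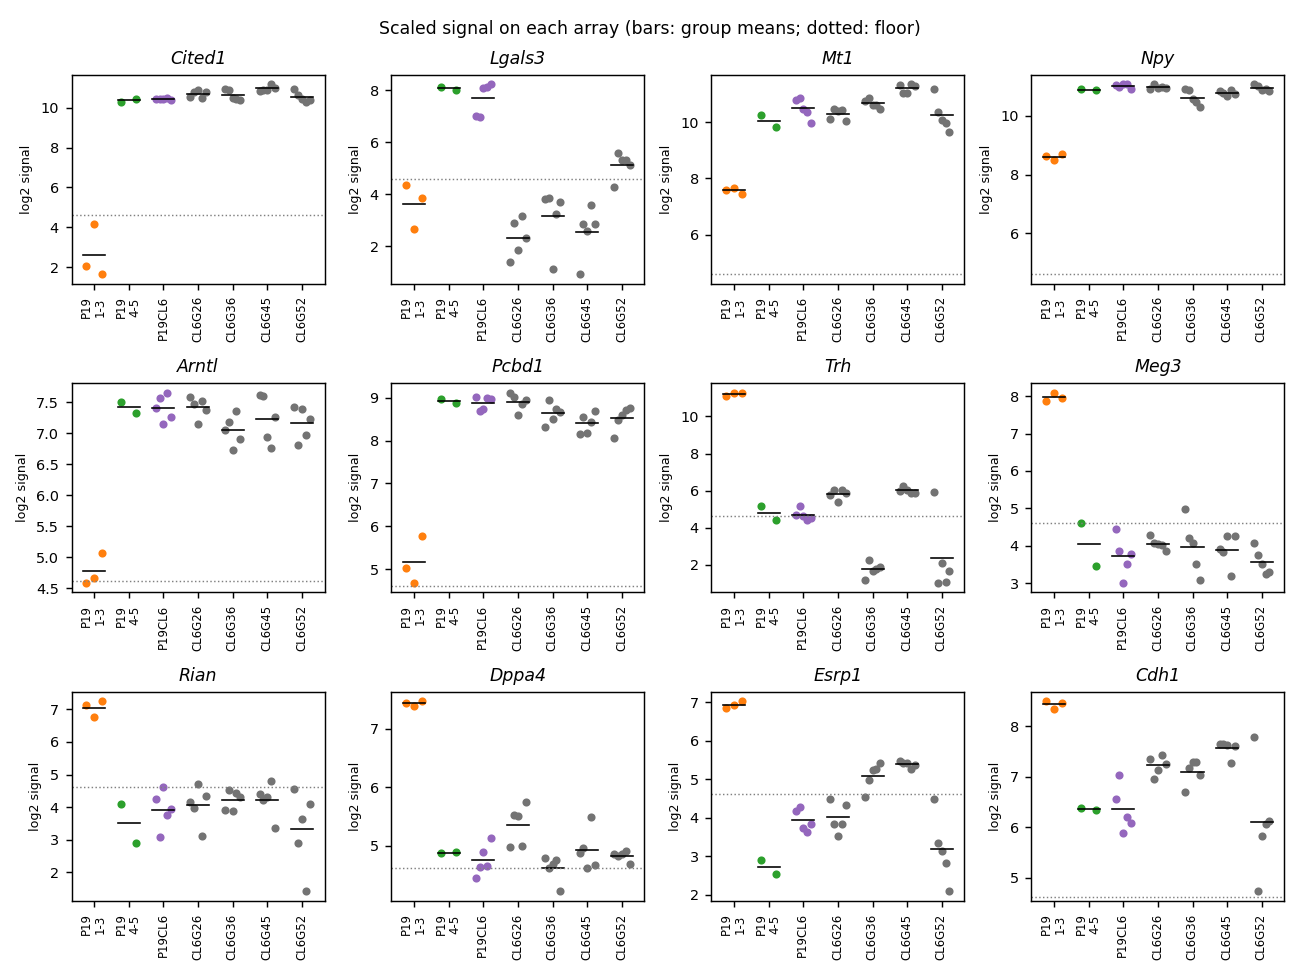
Log2 signal of 12 genes on each array (points) with group means (bars) and the floor (dotted line), for P19 replicates 1 to 3, P19 replicates 4 and 5, P19CL6 and the 4 sublines. The points of P19 replicates 4 and 5 lie near those of P19CL6, and Lgals3 is the gene of these 12 in which the sublines lie low with P19 replicates 1 to 3.

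Npy, the precursor of neuropeptide Y, was bright in both groups. It read 8.64, 8.51 and 8.69 on P19 replicates 1 to 3 and 11.03, 10.98, 11.08, 11.08 and 10.91 on P19CL6, a difference of 2.40 ± 0.09 (SE), or 5.29-fold. The 2 left-out P19 replicates read 10.90 and 10.87, and the sublines 10.30 to 11.07. The other neuropeptide precursor with a large difference lay the opposite way. Trh encodes the precursor of thyrotropin-releasing hormone and read 11.13, 11.29 and 11.29 on P19 replicates 1 to 3 against 4.71, 5.17, 4.66, 4.44 and 4.51 on P19CL6, 89.2-fold lower with the last 2 arrays raised to the floor. P19 replicates 4 and 5 read 5.16 and 4.41. The sublines were low as well but unequal, from 1.05 to 6.23: all CL6G26 and CL6G45 arrays and CL6G52 replicate 1 lay near the top of that range. Of 13 neuropeptide and hormone precursors tested, these 2 alone were counted, against 2.08% of all genes tested in either direction. The other named ones, Chga, Penk and Pomc, differed by -0.52, -0.51 and -0.23.

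Dppa4 marks pluripotent and early germ cells. It read 7.45, 7.40 and 7.47 on P19 replicates 1 to 3 and 4.44, 4.63, 4.88, 4.66 and 5.13 on P19CL6, 6.31-fold lower, with P19 replicates 4 and 5 at 4.88 each. It was the single member counted of 8 tested genes linked to the Dppa family and the germline, against 2.08% of all genes tested. The median difference of that list was -0.10. Efhd1, which encodes a calcium-binding protein of mitochondria, was at least 9.75-fold lower. Pdzrn3, which encodes a ubiquitin ligase with PDZ domains, read 8.23, 8.10 and 8.17 against 5.24, 5.39, 5.57, 5.64 and 5.72 and was 6.31-fold lower. The remaining lower genes included the lysosomal protease gene Ctsc (4.66-fold lower), the selenium carrier Selenop (4.59-fold lower) and Ttc39b (4.37-fold lower, limited by the floor, with 1 of 5 P19CL6 arrays above it). Dcaf12l1, which encodes a WD-repeat protein, was 5.29-fold lower, limited by the floor: P19CL6 replicates were spread from 0.73 to 4.66 and 2 of 5 lay above it.

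Several genes that hypoxia-inducible factor is known to turn on were higher in P19CL6. These factors are degraded in the presence of oxygen by prolyl hydroxylases such as Egln1, which is itself one of their targets, and they bind a short DNA element whose core reads ACGTG or GCGTG. Of 19 genes of the hypoxia list that were tested, 8 were counted as higher (42.1%, against 1.21% of all genes tested) and 0 as lower. The arrays did not overlap in 12, all higher in P19CL6, and the median difference of the list was 0.76, beside 0.0037 for all genes tested.

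The promoters of 4 of these 8 genes are shown as examples of windows that hold the element; each of the 4 genes has 1 start in the table. Each line holds 250 bases before and 50 bases after an annotated transcription start, from RefSeq on GRCm38.p6, and capitals mark ACGTG on either strand. The windows are chr7:138909457-138909756 (minus strand) for Bnip3, chr8:45999801-46000100 (minus strand) for Ankrd37, chr10:59951721-59952020 (minus strand) for Ddit4 and chr8:124949205-124949504 (minus strand) for Egln1.
Bnip3: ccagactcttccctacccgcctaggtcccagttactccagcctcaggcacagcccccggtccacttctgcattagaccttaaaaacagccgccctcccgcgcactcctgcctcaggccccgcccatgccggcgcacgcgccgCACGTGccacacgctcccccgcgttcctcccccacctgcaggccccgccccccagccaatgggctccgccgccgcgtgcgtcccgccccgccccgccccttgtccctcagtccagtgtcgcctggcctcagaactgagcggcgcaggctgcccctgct
Ankrd37: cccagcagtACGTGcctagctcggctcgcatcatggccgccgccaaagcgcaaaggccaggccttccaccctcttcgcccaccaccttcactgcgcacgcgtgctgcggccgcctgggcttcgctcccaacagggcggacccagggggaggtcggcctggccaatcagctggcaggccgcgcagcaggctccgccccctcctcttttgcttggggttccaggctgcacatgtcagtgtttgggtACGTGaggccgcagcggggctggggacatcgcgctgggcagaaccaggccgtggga
Ddit4: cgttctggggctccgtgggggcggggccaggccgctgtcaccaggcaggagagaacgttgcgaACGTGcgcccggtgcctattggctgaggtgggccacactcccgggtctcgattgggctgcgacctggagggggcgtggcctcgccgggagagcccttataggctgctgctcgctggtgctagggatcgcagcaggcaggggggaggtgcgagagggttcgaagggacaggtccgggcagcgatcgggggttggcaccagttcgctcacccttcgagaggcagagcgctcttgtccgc
Egln1: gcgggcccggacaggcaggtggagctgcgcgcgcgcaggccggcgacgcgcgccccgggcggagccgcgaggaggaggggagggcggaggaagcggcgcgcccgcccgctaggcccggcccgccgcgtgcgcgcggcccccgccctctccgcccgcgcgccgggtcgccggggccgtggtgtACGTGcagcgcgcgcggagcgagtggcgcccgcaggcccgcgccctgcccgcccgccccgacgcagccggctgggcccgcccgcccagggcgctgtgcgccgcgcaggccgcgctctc
ACGTG occurred in all 7 windows found for 6 of the 8 genes (Bhlhe40 and Ndrg1 had none in the table), counting Pfkfb3 with 2 starts and Ero1a. It occurred in 9 of 16 windows of the 11 list genes that were not counted (56.2%) and in 6447 of 32851 windows of all genes (19.6%). In Bnip3 the match is the palindrome CACGTG, read once on each strand, which also contains the E-box of clock and Myc factors. A match is a string of letters in this window and was not tested as a binding site.

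Bhlhe40, a transcriptional repressor that responds to hypoxia and also belongs to the circadian loop, had the largest difference of the list. It read 1.33, 3.04 and 1.09 on P19 replicates 1 to 3, under the floor, and 7.24, 7.11, 7.41, 6.97 and 6.61 on P19CL6, at least 5.47-fold higher. Ndrg1, which is induced by several stresses, read 5.28, 5.32 and 5.43 against 7.68, 7.68, 7.71, 7.61 and 7.35 and was 4.79-fold higher. Its 5 probe sets differed by 1.08 to 2.26. The oxygen sensor Egln1 read 6.82, 6.88 and 7.24 against 8.86, 8.84, 8.53, 8.32 and 8.46, 3.08-fold higher. Its second probe set differed by 0.56.

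Bnip3, a mitochondrial receptor of mitophagy, was already bright in P19 at 9.50, 9.51 and 9.61 and read 10.92, 10.79, 10.60, 10.63 and 10.57 in P19CL6, 2.24-fold higher. Ddit4, an inhibitor of mTOR signalling, read 7.74, 7.83 and 7.87 against 9.33, 9.46, 8.84, 8.84 and 9.0, 2.43-fold higher. Ero1a, an oxidase of the endoplasmic reticulum, read 7.91, 7.85 and 8.05 against 9.40, 9.45, 9.29, 9.07 and 9.01, 2.48-fold higher. In these 3 genes the groups were separate and P19 replicates 4 and 5 lay on the P19CL6 side. Pfkfb3, which makes the activator of phosphofructokinase, was at least 2.79-fold higher, although its second probe set differed by 0.15. Ankrd37 was 2.37-fold higher, with P19 replicate 2 at 3.48 below the other 2 at 5.24 and 5.39.

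The list was not uniform. Vegfa, the angiogenic factor, differed by 0.26, the demethylase gene Kdm3a by 0.50, Adm by -0.13 and Car9, a carbonic anhydrase, was at or under the floor in the means of both groups. The collagen prolyl hydroxylase P4ha1 differed by 0.83 and Egln3 by 0.76. Hif1a itself differed by 0.16 ± 0.09, and its other probe sets by -0.14 and 0.47. All 20 subline arrays lay nearer P19CL6 than P19 replicates 1 to 3 in each of the 8 genes counted.

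**Figure D3:**
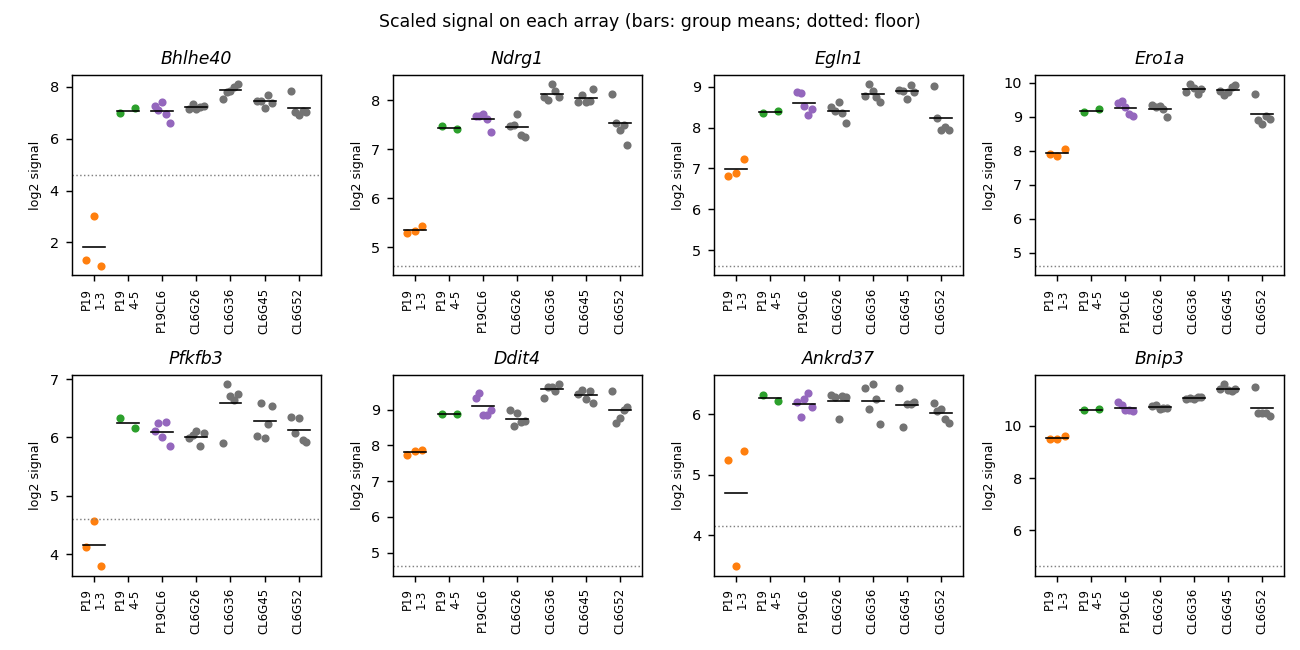
Log2 signal on each array (points) of the 8 hypoxia-linked genes counted as higher in P19CL6, with group means (bars) and the floor (dotted line), for P19 replicates 1 to 3, P19 replicates 4 and 5, P19CL6 and 4 sublines. P19 replicates 1 to 3 are the lowest group in each panel.

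Of 16 glycolytic genes tested, 2 were counted as higher: Pfkfb3 and Pdk1, the kinase that closes pyruvate dehydrogenase, at 7.54, 7.73 and 7.30 against 8.66, 8.66, 8.76, 8.57 and 8.56. The MOE430B probe set of Pdk1 did not show this and differed by -0.22. The muscle phosphofructokinase Pfkm differed by 0.75 and the liver form Pfkl by 0.39, while the lactate exporter Slc16a3 differed by -0.47. The list median was 0.24, and 1.21% of all genes tested were counted as higher. Aldoc, an aldolase outside the lists that is named after its values were seen, was 2.20-fold higher.

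Both metallothionein genes measured were higher in P19CL6. These small cysteine-rich proteins bind zinc and copper, and their genes are switched on by the metal-responsive factor Mtf1 through elements with the core TGCACNC or TGCGCNC, where N is any base. Mt1 read 7.61, 7.67 and 7.47 on P19 replicates 1 to 3 and 10.78, 10.85, 10.45, 10.37 and 9.97 on P19CL6, 7.49-fold higher. Its neighbour Mt2, named after its values were seen, read 8.58, 8.51 and 8.53 against 10.91, 10.94, 10.43, 10.29 and 10.41, 4.16-fold higher. The left-out P19 pair read 10.27 and 9.83 for Mt1 and 10.35 and 10.33 for Mt2.

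The promoters of both genes are shown because they carry several copies of that core. The windows run from 250 bases before to 50 bases after the start, from RefSeq on GRCm38.p6, at chr8:94178839-94179138 (plus strand) for Mt1 and chr8:94172368-94172667 (plus strand) for Mt2, with the core in capitals on either strand.
Mt1: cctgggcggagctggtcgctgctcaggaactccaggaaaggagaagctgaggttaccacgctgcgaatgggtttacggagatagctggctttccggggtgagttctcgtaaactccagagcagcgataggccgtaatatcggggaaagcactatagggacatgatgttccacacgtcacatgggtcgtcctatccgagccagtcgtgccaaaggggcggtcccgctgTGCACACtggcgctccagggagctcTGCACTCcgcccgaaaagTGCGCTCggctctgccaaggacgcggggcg
Mt2: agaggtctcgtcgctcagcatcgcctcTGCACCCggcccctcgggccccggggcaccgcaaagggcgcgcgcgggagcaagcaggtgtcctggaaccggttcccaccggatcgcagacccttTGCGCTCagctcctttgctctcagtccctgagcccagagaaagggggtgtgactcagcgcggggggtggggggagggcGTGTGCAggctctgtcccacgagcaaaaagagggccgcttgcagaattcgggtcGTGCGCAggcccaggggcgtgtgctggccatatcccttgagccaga
Mt1 held 3 matches and Mt2 held 4. Of all 32851 windows, 25.7% held at least 1 match, 1.97% held at least 3 and 0.517% at least 4. Elements farther upstream were not examined.

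Noncoding RNAs of the imprinted Dlk1-Dio3 locus were lower in P19CL6. Its maternal chromosome expresses a string of noncoding RNAs, among them Meg3, Rian and Mirg, from which many microRNAs are cut, and its paternal chromosome expresses the protein genes Dlk1, Rtl1 and Dio3. Of 6 genes of the list tested, 3 were counted as lower (0.865% of all genes tested) and 0 as higher, and all 3 were the noncoding RNAs. The list median was -1.15.

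Meg3 read 7.86, 8.09 and 7.96 on P19 replicates 1 to 3 and 4.45, 3.87, 3.02, 3.51 and 3.78 on P19CL6, at least 10.2-fold lower. Its 7 probe sets all lay lower in P19CL6, but by amounts from -0.44 to -4.18. Rian read 7.12, 6.75 and 7.25 against 4.24, 3.08, 4.61, 3.76 and 3.94, at least 5.38-fold lower, and its MOE430B probe set differed by -0.36. Mirg read 6.41, 6.25 and 6.24 against 5.53, 3.98, 4.89, 4.69 and 4.76, 2.83-fold lower. The left-out pair was low in all 3, at 4.62 and 3.47 for Meg3, 4.11 and 2.90 for Rian, and 5.50 and 4.87 for Mirg. The protein gene Dlk1, a Notch-like ligand, read 5.76, 5.55 and 5.12 against 4.80, 4.68, 3.66, 4.64 and 3.49. Those arrays did not overlap, but the means raised to the floor differed by -0.81, short of 2-fold.

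Imprinted genes elsewhere in the genome did not share a direction. Of 22 tested, 1 was counted as higher and 3 as lower, against 1.21% and 0.865% of all genes tested. The list median was 0.03. Igf2r, the receptor that clears IGF2 and is expressed from the maternal copy, read 5.99, 6.08 and 6.58 against 7.31, 7.29, 7.21, 7.05 and 7.50, 2.07-fold higher. Its second probe set differed by 0.70. The growth factor adaptor Grb10 was 3.05-fold lower, at 6.16, 6.40 and 6.71 against 4.71, 5.12, 5.01, 4.51 and 4.52. Phlda2, which restrains placental growth, was 2.39-fold lower and Magel2, a gene of the Prader-Willi region, 2.07-fold lower. Snrpn, of that same region, differed by 0.84 in the other direction.

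Of 20 tested genes of the list on cadherins and the epithelial state, 4 were counted as lower and 1 as higher, against 0.865% and 1.21% of all genes tested. The arrays of 8 lay wholly lower and of 4 wholly higher, and the median was -0.31. The adhesion molecule Cdh1 (E-cadherin) read 8.49, 8.34 and 8.45 on P19 replicates 1 to 3 and 6.56, 7.04, 5.88, 6.21 and 6.09 on P19CL6, 4.21-fold lower. The groups were separate, and P19 replicates 4 and 5 read 6.38 and 6.35. Esrp1, a splicing factor specific to epithelia, read 6.85, 6.92 and 7.02 against 4.18, 4.27, 3.74, 3.63 and 3.83, at least 4.99-fold lower. The tight junction gene Cldn7 was 3.72-fold lower and Grhl2, a transcription factor that maintains epithelial genes, 2.12-fold lower. The second probe set of Grhl2 differed by 0.0075.

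Zeb1, the repressor of Cdh1, lay on the other side, at 6.15, 6.32 and 6.13 against 7.21, 6.95, 7.30, 7.37 and 7.21, 2.01-fold higher, and its MOE430B probe set differed by 0.35. Picked from the genes counted as lower, and so no evidence on epithelial genes at large, the B-box gene Bspry was 3.13-fold lower, the epithelial clathrin adaptor Ap1m2 at least 3.12-fold lower and the membrane protease St14 2.08-fold lower. Cdh1 was not uniformly low in the sublines. Their arrays read 4.74 to 7.77 with a median of 7.27, and 14 of the 20 lay nearer P19CL6. CL6G52 replicate 1 held the top value, whereas the other 4 CL6G52 arrays read 4.74 to 6.12.

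In the extracellular matrix, the paired collagen IV genes were higher. Col4a1 read 7.33, 7.29 and 7.58 against 8.67, 8.53, 8.72, 8.73 and 8.74, 2.43-fold higher (its second probe set differed by 0.82), and Col4a2 read 5.61, 6.02 and 5.67 against 7.07, 7.04, 7.05, 7.37 and 7.75, 2.80-fold higher. These chains form the network of basement membranes and share a bidirectional promoter. Col4a5 and Sparc differed by 0.86 and 0.77. Mmp2, the gelatinase that degrades collagen IV, was 2.14-fold lower, and the 23 genes of the list had a median of 0.13. Of these 23, 2 were counted as higher and 1 as lower, against 1.21% and 0.865% of all genes tested. Of 14 contractile genes, the smooth muscle genes Cnn1 and Myl9 were counted as lower (2.56-fold and 2.04-fold) and 0 as higher. Acta2 differed by -0.78. Over all genes tested 0.865% were counted as lower and 12.6% lay wholly lower, and of the 14 contractile genes 7 lay wholly lower.

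Markers of other cell types moved with some of these lists. The summed level of 9 tested endoderm genes, of 19 listed, was 10.29 to 10.33 on P19 replicates 1 to 3, 10.73 to 11.03 on P19CL6 and at most 11.02 on P19 replicates 4 and 5, and that list contains Col4a1. For 8 tested trophoblast genes of 15 listed the ranges were 9.71 to 9.85, 10.04 to 10.47 and 10.28 to 10.42. For 14 tested neural genes of 21 listed they were 10.01 to 10.08, 10.62 to 10.76 and 10.65 to 10.72. For 14 contractile genes of 20 they overlapped, at 11.66 to 11.77, 11.46 to 11.77 and 11.67. For 7 tested fibroblast genes of 17 they were 8.29 to 8.55, 7.98 to 8.31 and 8.18 to 8.39, and Thy1 was counted as lower. The defining genes examined for endoderm, fibroblasts and trophoblast were mostly under the floor: Sox17 was above it on at most 4 of 30 arrays, Sox7 on 2, Col3a1 on 0 and Elf5 on 0. Those of neural and contractile cells were mixed. Nes was above the floor on 30 arrays, Pax6 on at most 4 and Neurog1 on 0. Des was above it on 28, Tnnt2 on 19 on MOE430B and 0 on MOE430A, and Myl7 on 0. The part of such cells in the differences was not tested, and in RNA from whole cultures fewer cells of a type and less RNA per cell cannot be told apart.

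Of 14 tested targets of the tumour suppressor p53, 3 were counted as higher and 0 as lower, against 1.21% and 0.865% of all genes tested. The arrays of 8 lay wholly higher and of 0 wholly lower, against 11.7% and 12.6%, and the median was 0.53. Ccng1, a cyclin that acts in feedback on p53, read 7.89, 7.81 and 7.63 against 9.07, 9.05, 9.56, 9.47 and 9.58, 2.97-fold higher, and its other 2 probe sets differed by 0.86 and 0.82. Perp, a desmosomal target, was 2.21-fold higher and Trp53inp1, which promotes p53-dependent death and autophagy, 2.18-fold higher. The second probe set of Trp53inp1 differed by 0.74. The cell cycle inhibitor Cdkn1a read 6.56, 6.66 and 6.62 against 7.36, 7.22, 7.76, 7.85 and 7.72, a difference of 0.97 that fell short of the 2-fold limit although the groups were separate. Its second probe set differed by 0.33. The sublines were uneven in these genes: 18 of their 20 arrays lay nearer P19CL6 for Ccng1, 13 for Trp53inp1, 7 for Perp and 6 for Cdkn1a.

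Among 28 cell cycle genes, 2 were counted as lower, Ccnd1 and Ccnd2, and 0 as higher. Both encode D-type cyclins, which drive exit from G1. Ccnd1 read 8.39, 8.57 and 8.49 against 7.01, 7.03, 7.42, 7.26 and 7.31, 2.42-fold lower, and Ccnd2 read 8.93, 8.97 and 8.82 against 7.70, 7.87, 7.68, 7.57 and 7.92, 2.23-fold lower. Ccne1, the cyclin of the G1 to S transition, was 1.998-fold lower, just short of the limit, but its MOE430B probe set differed by 0.0173. The median of the list was -0.07, and 0.865% of all genes tested were counted as lower.

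Parts of the circadian clock differed. Of 16 clock-linked genes, 3 were counted as higher and 0 as lower, against 1.21% and 0.865% of all genes tested. The list median was 0.12. Arntl (BMAL1), the activator at the core of the loop, read 4.59, 4.66 and 5.07 on P19 replicates 1 to 3 and 7.40, 7.57, 7.14, 7.66 and 7.26 on P19CL6, 6.17-fold higher. Its probe set on MOE430B differed by 0.16, so the 2 readings of Arntl do not match in size. Dbp, an output gene of the loop, was 2.39-fold higher, and Bhlhe40, described above, also belongs here. The repressors Per2 and Cry1 read lower on average, with differences of -0.89 and -0.85.

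Each list of the pluripotency network had 1 gene counted. Of 14 shared pluripotency genes 1 was counted as lower, Gdf3, a TGF-beta family ligand of pluripotent cells, at 9.25, 9.27 and 9.18 against 7.94, 7.83, 7.70, 7.86 and 8.06, 2.56-fold lower. Its MOE430B probe set was also counted as lower. The median of that list was 0.02, and 0.865% of all genes tested were counted as lower. Of 11 tested genes of the naive state, from 17 listed, Klf5 was counted as lower (2.11-fold, with a second probe set at -0.29). Of 15 genes of the primed epiblast Lefty1 was counted as higher, against 1.21% of all genes tested. Pou3f1 of that list differed by -0.97, and by -1.35 on a second probe set. The arrays of 5 primed genes lay wholly higher and of 5 wholly lower. For the shared list these counts were 3 and 4, and for the naive list 0 and 2. Over all genes tested 11.7% lay wholly higher and 12.6% wholly lower. Outside the lists, and named after their values were seen, the embryonic stem cell Ras gene Eras was 2.44-fold lower, the homeobox gene Hesx1 2.10-fold lower, the zinc finger gene Sall1 3.03-fold lower and Mycn 2.40-fold lower. Of 19 primitive streak and mesoderm genes 0 were counted, and their largest differences were those of Sp5 (0.91), Evx1 (0.80), Fgf8 (0.60), Mixl1 (0.57) and Eomes (0.55).

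The signalling lists held 1 or 2 counted genes each. Lefty1, the secreted inhibitor of Nodal, read 7.82, 7.73 and 7.84 against 9.50, 9.35, 9.09, 9.28 and 9.18, 2.80-fold higher, while Nodal itself differed by 0.56 ± 0.10 (0.92 on its second probe set). With Gdf3 these made 1 higher and 1 lower among 16 genes of the Nodal and activin list. Id1, the classic target of BMP signalling, read 8.25, 8.18 and 8.26 against 6.56, 6.55, 7.06, 7.16 and 7.13, 2.53-fold lower, and was the single gene counted among 16 BMP genes, where Id2 differed by -0.62. In the Wnt list of 22 genes, the secreted inhibitor Sfrp1 (2.23-fold) and Ccnd1 were lower, whereas Axin2, a target that feeds back on the pathway, differed by 0.79. Among 21 FGF and ERK genes the phosphatase gene Dusp4 was 2.35-fold lower and the early response gene Ier3 3.05-fold higher. The list medians were 0.12, -0.02, -0.13 and -0.10. For comparison, 1.21% of all genes tested were counted as higher and 0.865% as lower. In the Nodal and the BMP list, 25% of genes lay wholly higher and 6.25% wholly lower. In the Wnt list 9.09% lay wholly higher and 27.3% wholly lower, and in the FGF and ERK list 14.3% and 28.6%. Over all genes tested these shares were 11.7% and 12.6%.

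Of 14 tested neural genes, 3 were counted as higher and 0 as lower, against 1.21% and 0.865% of all genes tested. The arrays of 5 lay wholly higher and of 1 wholly lower, against 11.7% and 12.6%, and the median was 0.07. Zic1, a zinc finger factor of the neural plate, read 6.20, 6.43 and 6.39 against 8.64, 8.53, 8.44, 8.64 and 8.39, 4.55-fold higher, and its MOE430B probe set differed by 0.46. The Notch effector Hes5 was under the floor on P19 replicates 1 to 3 and read 6.32, 5.99, 5.92, 5.89 and 6.23 on P19CL6, at least 2.75-fold higher, and its second probe set differed by 0.33. Of the 20 subline arrays, 8 lay nearer P19CL6 in Hes5. Sox21 was 2.04-fold higher, with P19 replicates at 3.31, 4.79 and 5.09.

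Within the Cited family the members split. Cited2, the relative of Cited1 that competes with hypoxia-inducible factor for p300, was 2.20-fold lower, at 8.38, 8.05 and 8.31 against 6.61, 6.56, 7.43, 7.29 and 7.67. P19 replicates 4 and 5 read 7.66 and 7.84, on the upper edge of P19CL6. Crebbp, Tfap2a and Hif1a, partners of the family, differed by -0.13, 0.26 and 0.16. Of 15 interferon and MHC genes, 2 were counted as lower and 0 as higher, against 0.865% and 1.21% of all genes tested. Ifitm1 and Ifitm3, which encode membrane proteins abundant in early germ cells, were lower by 2.29-fold and 3.02-fold. H2-D1, Tap1 and H2-K1 differed by 0.71, 0.64 and 0.57. The other probe sets of H2-D1 differed by -0.17 and -0.01, and those of H2-K1 by 0.24 and 0.0068.

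Cholesterol synthesis and DNA methylation had 0 genes past the 2-fold limit, of 16 and 13 tested. The cholesterol genes nevertheless lay to one side: the arrays of 10 of 16 were wholly higher in P19CL6 (62.5%, against 11.7% of all genes tested), 0 wholly lower, and the median was 0.32. Insig1, Pmvk, Mvk, Hmgcs1 and Lss differed by 0.73, 0.69, 0.56, 0.54 and 0.50. The de novo methyltransferases Dnmt3a and Dnmt3b differed by -0.71 and -0.51. The other probe sets of Dnmt3a differed by -0.60 to 0.03, and that of Dnmt3b by -0.74. Dnmt3a read 8.92, 9.12 and 9.0 against 8.72, 8.61, 8.07, 8.11 and 7.98, with P19 replicates 4 and 5 at 7.95 and 7.97.

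**Figure D4:**
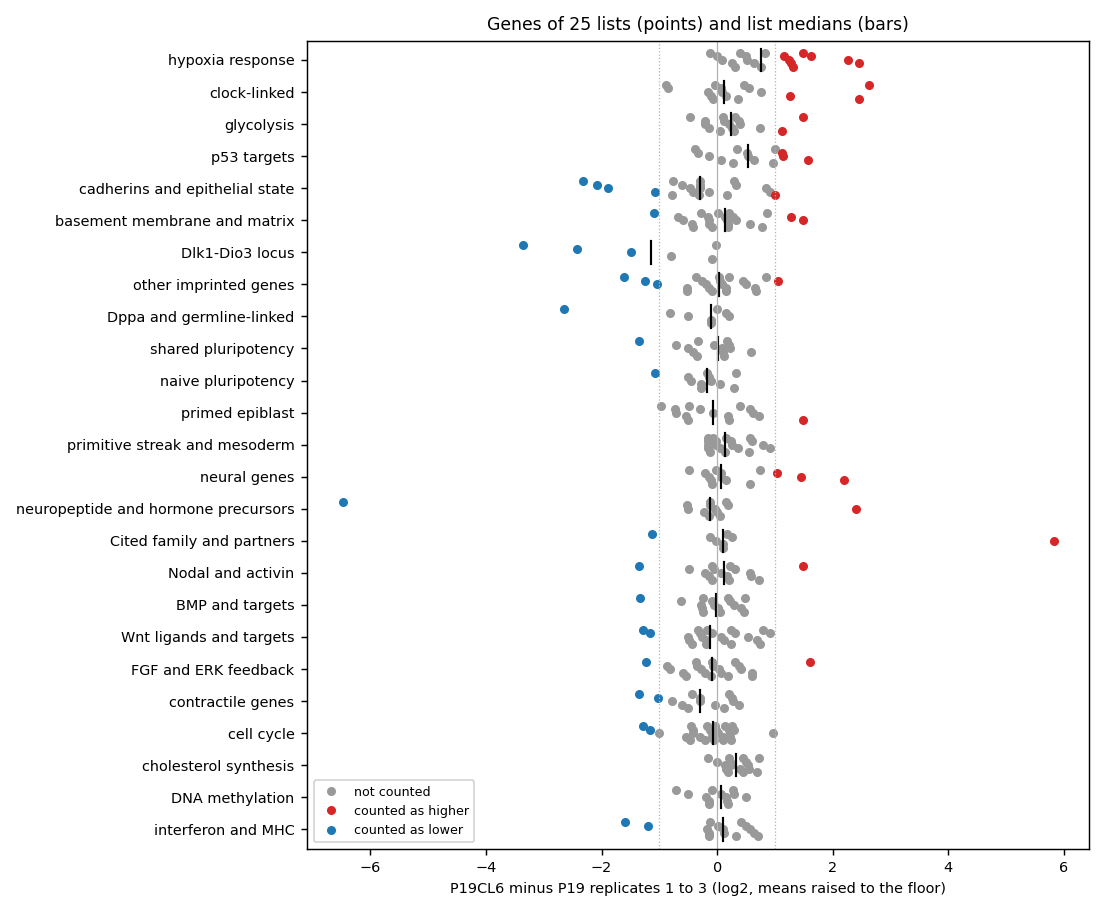
Difference between P19CL6 and P19 replicates 1 to 3 (log2, means raised to the floor) for each tested gene of 25 lists (points), with list medians (black bars); dotted lines mark 2-fold. Hypoxia genes lie to the right with a median of 0.76 and the Dlk1-Dio3 genes to the left with a median of -1.15.

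Some of the 274 genes were neighbours on their chromosomes, a feature that the choice of genes did not use. Of the 13181 genes tested, 13156 were placed in order along the chromosomes from the RefSeq annotation of GRCm38.p6. Runs of 20 consecutive tested genes in which at least 12 lay wholly on one side occurred in 31 of 12768 windows (0.243%, either direction), and these joined into 4 stretches. The window and its limit were chosen after the values were seen. By chromosome, 19.5% of 457 tested genes on chromosome 14 lay wholly higher in P19CL6, 17.9% of 1092 on chromosome 11, and 11.7% over the genome. For genes wholly lower the share was 20.9% on chromosome 6, 18.4% on the X chromosome and 16% on chromosome 11, against 12.6%.

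The stretch with the largest differences ran from Polr3d to Nufip1 on chromosome 14. Of its 31 tested genes, 20 lay wholly higher in P19CL6 and 0 wholly lower, and 9 were counted as higher: Polr3d, Phyhip, Bmp1, Fam160b2, Rcbtb2, Itm2b, Med4, Sucla2 and Slc25a30. Among its 20 genes above the floor on all 8 arrays the median difference was 0.75, with a range from -0.09 to 2.02, against 0.0003 for all such genes placed. Their products have varied roles: Polr3d is a subunit of RNA polymerase III, Med4 of Mediator, Sucla2 of succinyl-CoA ligase, and Bmp1 is a procollagen protease.

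Sucla2 read 8.24, 7.93 and 8.06 on P19 replicates 1 to 3 and 9.24, 9.28, 9.19, 9.14 and 9.22 on P19CL6, 2.20-fold higher. Itm2b, which encodes a membrane protein, read 7.70, 7.83 and 7.73 against 8.88, 8.80, 9.10, 8.84 and 8.81, 2.19-fold higher. Slc25a30, a mitochondrial carrier, was the larger exception at 6.22, 6.59 and 6.24 against 8.61, 8.57, 8.07, 8.39 and 8.20, 4.05-fold higher. The left-out pair differed from P19CL6 by a median of 0.01 over the 20 genes above the floor, and the sublines exceeded P19 replicates 1 to 3 by a median of 0.79. Farther along the same chromosome Akap11, a kinase anchor, and Sugt1, a co-chaperone, were also among the genes counted as higher.

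Chromosome 11 held 2 stretches with smaller differences. From Spred2 to Cfap36, 20 of 33 tested genes lay wholly higher and 1 wholly lower, with a median of 0.43 over 28 genes above the floor. Here Ppp4r3b, a regulatory subunit of a protein phosphatase, read 8.18, 7.95 and 8.04 against 9.16, 9.16, 9.22, 9.08 and 9.26, 2.17-fold higher. From Mtfp1 to Pold2, 18 of 32 lay wholly higher and 2 wholly lower, with a median of 0.30 over 27. The fourth stretch, from Emg1 to Mrpl51 on chromosome 6, lay the other way: 15 of 24 tested genes were wholly lower, 2 wholly higher, and the median over 19 was -0.47. Emg1, a ribosome assembly factor, read 11.10, 11.15 and 11.19 against 10.36, 10.27, 10.38, 10.36 and 10.33.

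**Figure D5:**
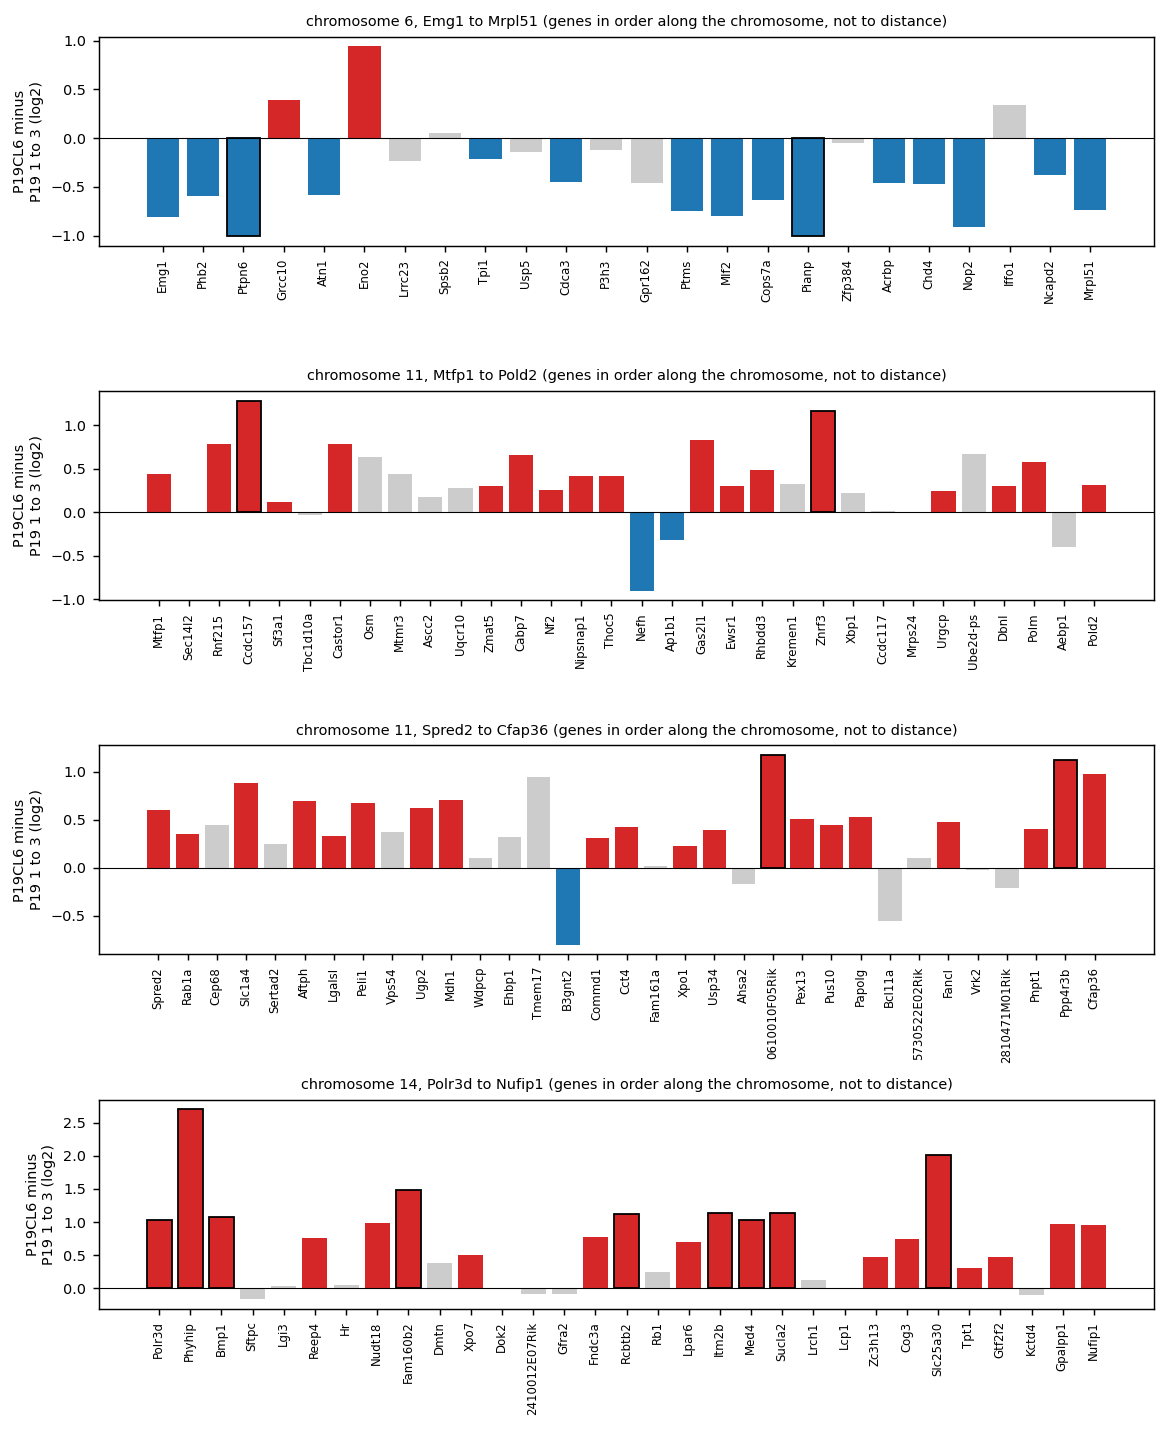
Difference between P19CL6 and P19 replicates 1 to 3 (log2, means raised to the floor) for each tested gene of 4 stretches of neighbouring genes, in order along the chromosome and without distances. Red and blue bars are genes whose arrays lay wholly higher or wholly lower in P19CL6, grey bars overlap, and outlined bars are the genes counted as different, 9 of them in the stretch on chromosome 14.

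The 8 genes in which P19 replicates 4 and 5 lay farthest towards P19 replicates 1 to 3 were picked for that, and their place ran from 0.29 to 0.56. Both arrays still lay inside the P19CL6 range in Ifitm1, and 1 of them did in Nrxn3, Jdp2, Ppp1r1a and Cited2. Nrxn3, a presynaptic adhesion gene, read 7.24, 7.02 and 6.57 on P19 replicates 1 to 3, 6.23 and 6.82 on replicates 4 and 5, and 5.90, 6.57, 4.55, 4.86 and 5.69 on P19CL6. Jdp2, a repressor of AP-1, read 5.09, 5.04 and 4.77, then 5.77 and 4.88, then 6.16, 6.52, 5.80, 5.91 and 5.52. The second probe set of Jdp2 differed by -0.12. In both, the pair lay between or across the 2 groups. The other 6 were Dgkk, Ppp1r1a, Cited2, Ifitm1, Nrn1l and Lhfpl4. In Cited2 and Ifitm1 P19CL6 replicates 1 and 2 were the low arrays: Ifitm1 read 9.28, 9.17 and 9.29 in P19, 8.73 and 8.58 on replicates 4 and 5, and 7.09, 7.30, 8.57, 8.47 and 8.84 on P19CL6.

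The 4 sublines mostly read like P19CL6. In 142 of the 274 genes all 20 subline arrays lay nearer P19CL6 than P19 replicates 1 to 3, in 228 at least 16 did, and in 15 fewer than 10 did. By array, 232 to 259 of the 274 genes lay nearer P19CL6, most in CL6G26 and fewest in CL6G52 replicate 5. Besides Lgals3, the clearest exception was Rtl8c, a gene derived from a retrotransposon, with 1 of 20. It read 5.57, 5.51 and 5.30 on P19 replicates 1 to 3 and 5.83, 6.13, 7.07, 6.78 and 7.25 on P19CL6. The sublines come from P19CL6, and their arrays entered the filter and the SE of every difference.

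The comparison as labelled, P19CL6 against all 5 P19 replicates, is the one that could be tested. It shares 8 of its 10 arrays of each type with the comparison above and is not independent of it. With limma and Benjamini-Hochberg adjustment over an array type, 86 genes passed an adjusted p of 0.05 and a 2-fold difference (0.652% of 13181), 65 higher (0.493%) and 21 lower (0.159%). Of the 274 genes 66 passed (24.1%), which is 76.7% of the 86. Cited1 differed by 4.71 with an adjusted p of 0.01215, Trh by -3.96 with 0.01607, and Npy by 1.49, Meg3 by -2.67 and Dppa4 by -1.67 with 0.01215 each. The spread behind these p-values is pooled over all 6 strains, so they do not measure the split inside P19. The SE was 0.999 for Cited1 and 0.95 for Trh, whereas the SD of the 5 P19 arrays was 4.34 and 3.54. These 5 genes were also chosen with earlier results of the same arrays known. Cdh1 (adjusted p = 0.05004), Lgals3 (0.06075) and Rian (0.08994) did not pass. The count rests on P19 replicates 1, 2 and 3: without any one of them 0 genes passed with limma, and 1945, 1992 and 1918 genes had an unadjusted p under 0.05. In a fit of the 2 strains alone 0 passed and 2133 had an unadjusted p under 0.05.

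Genes with probe sets on both array types gave a second reading of the same RNA. Of 2111 such genes, 44 were counted on MOE430A. On MOE430B 38 of them had a difference of the same sign, 18 were also separate in the same direction, and 9 were also counted: Sall1, Gdf3, Nmt1, Sfrp1, Resf1, Slc5a5, S1pr3, Bcl2 and Flt1. None of the 44 was counted in the opposite direction, although Wnt7a differed by -0.70 there. Flt1, a receptor for VEGF named after its values were seen, read 5.96, 6.01 and 6.03 against 7.91, 8.10, 7.88, 7.87 and 8.01 on MOE430A, 3.88-fold higher. At the 2-fold limit, Prelid2, Akna and Ptprg lay just inside with differences of 1.0021, 1.0029 and 1.0033, and Crabp2, Icam1 and Myrf just outside with 0.9999, 0.9992 and -0.9985.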

How the data were processed

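RNA of 6 embryonal carcinoma strains, 5 replicates each, was measured on 30 MOE430A and 30 MOE430B arrays. The values are the authors' deposited intensity per probe set, from GCOS per the submitters' processing notes, on a linear scale; background steps are not given in the sources used here, and scanner images were not used here. Array medians ran from 30.2 to 53.4 on MOE430A and 10.6 to 16.5 on MOE430B, and precision is limited by how few arrays a group has. From the deposited intensities, raised to at least 1, log2 values were taken after quantile normalization within an array type (limma 3.58.1, R 4.3.3). Control probe sets and those with several or no gene symbols were left out: 20380 of 22690 and 14661 of 22575 had 1 symbol from the platform's annotation.

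Probe sets above the floor on at least 5 of 30 arrays were tested, 15068 and 12131. A gene was read from its probe set with the highest mean, MOE430A first. The SE of a difference is limma's, with trend, over 28 arrays of a type without P19 replicates 4 and 5, and it drops no other array. The labelled comparison used all 30. The scripts were tested on simulated data. The members and gene lists were chosen with earlier results of these data known.

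Named genes are the 12 with the largest differences in each direction among counted genes, clone names left out; the 5 markers Cited1, Trh, Npy, Meg3 and Dppa4; the 8 counted genes with P19 replicates 4 and 5 nearest P19 replicates 1 to 3; up to 5 genes a list by size; Pou5f1, Nanog and Sox2; and others named as chosen after their values were seen, including the other counted members of a list.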

Additional observations from a re-analysis of the deposited data

Results flagged for a closer look

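One array stood apart from the other arrays of its group in 11 of 274 group readings of the named genes, with signals raised to the floor. The gap to the nearest array, as a share of the range, was above 0.71, Dixon's critical value for 5 samples. Chance passes it in about 1 of 20 groups, a larger share than the 11 of 274 seen. Where the other arrays were raised to the floor even a small gap passes, as in Ttc39b (4.65 against 4.61 to 4.62).

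P19CL6 replicate 5 was high in Cacna1g (7.76, the others 7.07 to 7.21) and in the FGF receptor Fgfr2 (6.60, the others 5.69 to 5.88), and low in Ndrg1 (7.35, the others 7.61 to 7.71). Replicate 2 was high in Trh (5.17, the others at most 4.71) and Cnn1 (4.84, the others at the floor). Replicate 3 was high in Slc16a3 (9.65, the others 9.17 to 9.30) and Dppa5a (5.04, the others at the floor). Replicate 4 was high in Ttc39b (4.65, the others at the floor) and Pmvk (7.91, the others 7.40 to 7.54). In P19, replicate 2 was low in Evx1 (4.61, at the floor, the others 5.90 to 6.27) and replicate 5 high in the demethylase gene Tet1 (6.29, the others 5.66 to 5.81).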

How the results depend on the processing

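On the deposited scaling 246 genes were higher and 67 lower, and 227 of the 274 were still counted. With the floor 20 percentile points higher, 87 were higher and 44 lower, 33 list members were counted, both left-out P19 replicates lay nearer P19CL6 in 127 genes and all sublines in 76; fewer genes were tested. With all 5 P19 replicates 2 were higher and 4 lower, 4 had all sublines nearer P19CL6 and 2 were list members. Leaving out 1 replicate gave 159 to 172 higher and 116 to 133 lower.

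In the labelled test, the deposited scaling gave 39 higher and 8 lower, the raised floor 9 lower, and the 2 strains alone 0 and 0. Leaving out 1 replicate gave 0 to 135 higher and 0 to 65 lower: 0 without P19 replicate 1, 2 or 3, and 135 and 63 or 127 and 65 without P19 replicate 4 or 5. Without a P19CL6 replicate 42 to 55 were higher and 15 to 23 lower.

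Replicate numbers did not pair the samples (correlations of same-numbered deviations from -0.029 to 0.0527). With the replicate number as a block the labelled test gave 64 higher and 21 lower, and the same-numbered pairs 1 to 3 alone 171 and 126.

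Of 2160 values of named genes under the alternatives, 1978 moved by less than the replicate spread and 180 moved more. The other 2 changed sign in genes counted as different. Sox21 did so with no filter, where a MOE430A probe set with both means under the floor was read (-6e-04). Pdk1 did so with MOE430B preferred (-0.2153). Some values of genes not counted also crossed 0, such as Ccne1 (up to 0.0173) and H2-D1 (down to -6e-04), and are not among these 2. The causes were not tested. Signals near the floor limit what folds can show.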

Other observations

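Of 25 genes of the unfolded protein and integrated stress responses, Chac1 and Atf3 were counted as higher in P19CL6 and 0 as lower. The shares over all genes tested were 1.21% and 0.865%, and the list median was 0.18. Chac1, Atf3 and Stc2, the last outside the list, are named after their values were seen. Chac1, an enzyme that degrades glutathione, read 7.57, 7.80 and 7.89 on P19 replicates 1 to 3 and 9.53, 9.84, 8.46, 8.27 and 8.42 on P19CL6, with P19 replicates 4 and 5 at 8.52 and 8.40. Atf3, a stress-induced transcription factor, read 5.09, 4.79 and 5.08 against 6.66, 7.08, 5.56, 6.06 and 6.16. Stc2, a secreted glycoprotein induced by such stress, read 6.01, 6.37 and 5.94 against 8.38, 8.65, 8.17, 7.64 and 7.80. In Chac1, Atf3 and Stc2, P19CL6 replicates 1 and 2 held the highest values.

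Developmental regulators with no list of their own differed in both directions. Six2, a factor of kidney progenitors, was 3.33-fold higher and Tbx1, a factor of the pharyngeal arches, 3.11-fold higher in P19CL6, and Etv2, a factor of blood and vessel precursors, was 2.20-fold lower. The adhesion molecule L1cam read 6.28, 6.30 and 5.86 on P19 replicates 1 to 3 and 7.96, 8.0, 8.15, 8.15 and 8.03 on P19CL6, 3.75-fold higher.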
